A study of Mus musculus with 8 samples.

Results

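Microtubule, motor and cilium genes were measured in mouse brain that carried T9H in 1 copy, a translocation that exchanges segments of chromosomes 7 and 15. They were chosen by symbol, with earlier results of these data known, as were the roles and gene lists used below. The symbols took in the kinesins (Kif), cytoplasmic and axonemal dyneins (Dync, Dnah, Dnal), alpha-, beta- and gamma-tubulins and the gamma-tubulin complex. They also took in tubulin tyrosine ligase-like enzymes (Ttll), intraflagellar transport (Ift) and Bardet-Biedl (Bbs) proteins, unconventional myosins (Myo), and stathmin and MAP1 symbols. Plus-end binding proteins (Mapre, Clip, Clasp) and numbered centrosomal proteins (Cep) completed the rule. Of 22511 probe sets on the array, 14661 carried a single gene symbol, and 200 of those, for 120 genes, matched. A further 2 matching probe sets list several symbols and were left out. Where a gene had several probe sets, as 50 genes did, they are lettered from the brightest (A) down, and a member written without a letter had 1 (lettered A in the plots).

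All samples were T9H/+ heterozygotes with a duplication, so that both groups carry the translocation. In paternal-7 samples, proximal chromosome 7 was duplicated from the father and proximal chromosome 15 from the mother, and in maternal-7 samples the parents were exchanged. There was 1 array for each duplication in 4 contexts: cortex and cerebellum of neonates, and brain of embryos at 15.5 or 13.5 days post coitum (dpc). No normal karyotype is among the groups, and no group within a context was replicated. Separate animals, pools and shared animals are not told apart by the labels. P-values therefore set each difference against a spread that comes only from departures of these arrays from additive effects of context and duplication, not from replicates. Neonatal samples were dissected regions and embryonic ones are labelled as brain with no region named, so stage and dissection cannot be told apart. In pieces of tissue, fewer cells of a type and less RNA per cell cannot be told apart either.

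Microtubules are polar polymers of tubulin that serve dividing and postmitotic cells differently. In a dividing progenitor they form the spindle, on which kinesins align chromosomes and finish cytokinesis. In a neuron they are the tracks of axons and dendrites, along which kinesins carry cargo outward and cytoplasmic dynein carries it back, while MAP1 and plus-end proteins set their stability. In a cilium they form the axoneme, which is built by intraflagellar transport and moved, in motile cilia, by axonemal dyneins.

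A probe set was tested where its signal, a linear intensity, exceeded the array median (229.8 to 285.7) on at least 2 of the 8 arrays. This kept 132 of the 200 probe sets (66.0%), for 95 genes, and 13221 of 22511 overall (58.7%). Of the 68 not tested, 58 lay below the median on every array and 10 rose above it on 1. Their mean signals ran from 4.7 to 223.4, with a median of 62, against 165.1 to 25147.6 and a median of 681 among tested probe sets. All probe sets of 25 genes were left untested, among them the spindle kinesins Kif14, Kif15 and Kif18a and the transport motors Dync1h1 and Kif5b. Among tested probe sets, 95 exceeded the median on all 8 arrays. A few were tested through 1 side alone and so could only differ toward it, namely Dnah2 B and Tubb6 through neonatal arrays, and Cep128 C, Dnah12, Kif7, Ttll8 and Kif20b A through embryonic arrays. Differences are log2(signal + 58.5), paternal and maternal arrays averaged within a context, with ± giving the moderated standard error, and a probe set was called at an adjusted p under 0.05 in limma, adjusted over all 13221.

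Of 7 tested probe sets for cortex, all 3 of Bcl11b and that of Neurod2 were called higher in cortex than in cerebellum, and those of Emx1 (0.63) and Cux2 (0.25 and -0.43) were not called. Of 3 for cerebellum and hindbrain, Tfap2b and Pax7 were called lower in cortex and Zic1 was not called (0.05). Both tested probe sets for dividing cells (Mcm5 and Top2a) were called lower in neonatal than in embryonic arrays. Summed signals here take the brightest probe set of each gene on a list, untested genes (Mcm6, Snap25 and Gfap) included. For dividing cells the sum was 823 to 1428 in neonatal and 2021 to 5921 in embryonic arrays. Of 14 probe sets for postmitotic neurons 9 were called higher, with sums of 42557 to 51559 in neonatal and 13159 to 27698 in embryonic arrays. All 4 for astrocytes were called higher, with sums of 10893 to 12640 in neonatal and 4181 to 7245 in embryonic arrays. Over all tested probe sets 14.3% were called higher in neonatal arrays and 16.4% lower. Top2a had passed the filter through embryonic arrays alone, and 1 probe set each of Grin2b and Slc1a2 through neonatal arrays alone. These could only differ toward that side. Of 6 for ependyma and choroid plexus 1 was called, higher, and sums overlapped at 37742 to 48308 in neonatal and 25857 to 61280 in embryonic arrays. The 2 probe sets for neural progenitors, both of Rfx4, had 0.81 (called) and 0.40 (not called). These shifts in markers stand beside every neonatal against embryonic difference given here, and their part in it was not tested.

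Between neonatal and embryonic arrays, calls of different roles ran in different directions. Called transport motors were more often higher than lower in neonatal brain and all called MAP1 and plus-end probe sets were higher, while most called cilium and centrosome probe sets were lower. Among lower calls, Kif20b A, Kif7, Dnah12 and Cep128 C had passed the filter through embryonic arrays alone and say nothing of a role's direction. Of the 132 tested probe sets 52 were called (39.4%), where 30.7% of all tested probe sets were. Higher calls numbered 22 probe sets of 18 genes, beside a background of 14.3%, and lower calls 30 probe sets of 28 genes, beside 16.4%. The median difference was -0.18 over the tested members and -0.16 over all tested probe sets, and without the filter on dim probe sets it was -0.19 over all 200 and -0.17 over the whole array. The groups did not overlap for 41 of the 52, but a call on the same arrays makes such separation likely. The share over all called probe sets was not computed, so this count says nothing particular to the members. The split of calls depended on scaling: 22 higher and 30 lower as deposited (42.3% higher), 20 and 24 after quantile normalization (45.5%), and 24 and 17 after median centring (58.5%). Over all tested probe sets the higher share of calls was 46.5%, 54.7% and 69.4% under the same 3 scalings, and the median difference was -0.16, -0.06 and 0.02, so that differences as deposited are best read against -0.16. No member named by size within its role changed sign under either.

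**Figure D1:**
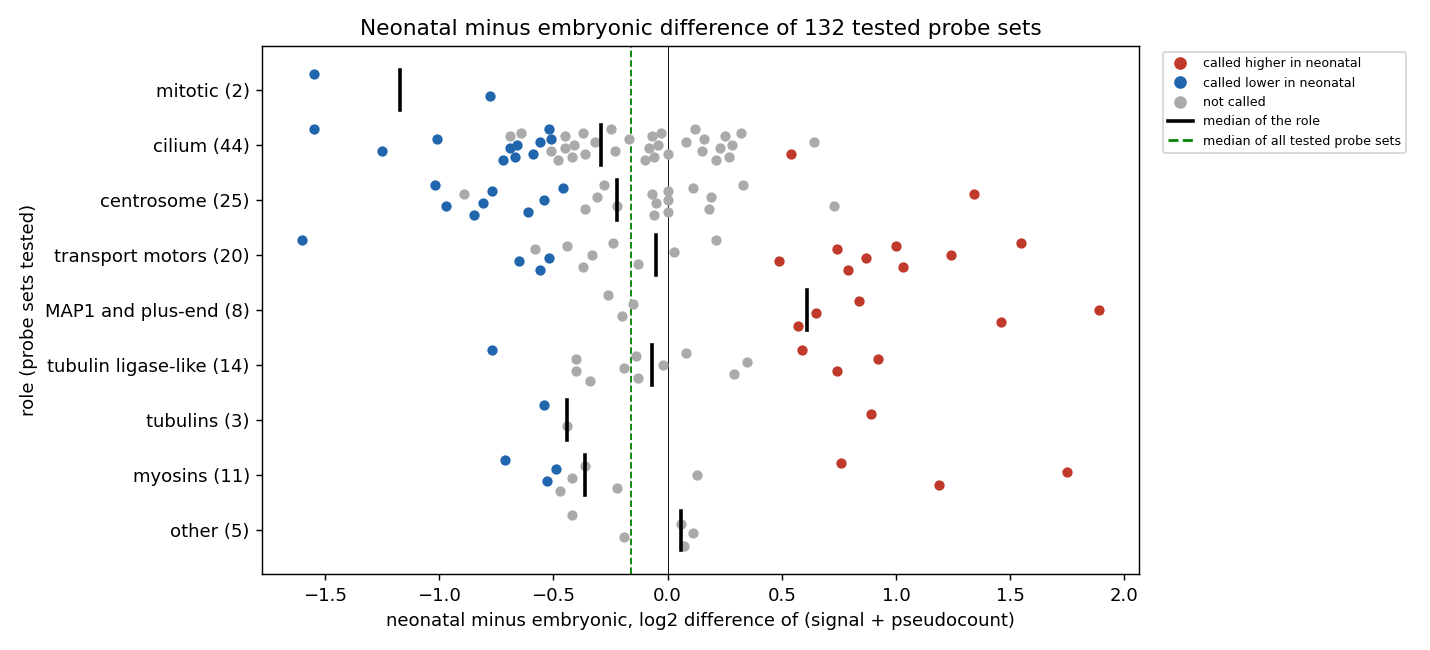
Log2 difference of neonatal minus embryonic arrays (horizontal axis) for the 132 tested probe sets, 1 point each, by role, with the number tested in brackets; red was called higher in neonatal arrays, blue lower, grey not called, and points are spread vertically for legibility. Black bars mark the median of each role and the dashed green line the median of all tested probe sets at -0.16; mitotic kinesins lie to its left, and MAP1 and plus-end proteins reach furthest right at 1.89.

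The mitotic kinesins comprised 8 probe sets of 5 genes, of which 2 were tested and both fell, Kif20b A after a filter that let it differ in that direction alone. Without the filter the median over all 8 was -0.24. Kif20b is a kinesin of the midzone and midbody that is needed for cytokinesis, and for a brain of normal size in mice. Kif20b A had signals of 160 and 166 in cortex and 120 and 180 in cerebellum, against 332 and 439 at 15.5 dpc and 852 and 813 at 13.5 dpc (paternal-7 before maternal-7 in each context, here and below). The groups did not overlap, all neonatal arrays lay below their array medians, and the 13.5 dpc arrays were the highest. The difference was -1.55 ± 0.14 (adjusted p = 0.00116), at least 2.42-fold lower when neonatal signals are set at the array median, and it was called under all 18 alternatives. The other 3 probe sets of Kif20b were dim and untested.

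Kif18b, a kinesin that trims the plus ends of astral microtubules in mitosis, had 950 and 1000 in cortex and 877 and 1131 in cerebellum, against 1571 and 1309 at 15.5 dpc and 2147 and 2053 at 13.5 dpc. Neonatal arrays again lay below all embryonic ones. It fell by 0.78 ± 0.15 (adjusted p = 0.00999), and the call was lost without the paternal-7 cortex array, without both cortex arrays (-0.77 each) and without both 13.5 dpc arrays (-0.52). Kif14, Kif15 and Kif18a stood below the median on every array and no direction can be given for them.

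The promoters of both fallen mitotic kinesins are set out for 2 elements that cell-cycle genes often share, the CCAAT box and the CHR element. The CCAAT box binds NF-Y, and the CHR element (TTTGAA or TTCGAA) binds the complex that silences cell-cycle genes in resting cells. The 130 bases before each start are printed 5′ to 3′ on the gene's strand, from RefSeq's promoter table of GRCm38.p6, with CCAAT boxes (either strand) in capitals. Kif18b lies at chr11:102925125-102925254 on the minus strand and Kif20b at chr19:34922228-34922357 on the plus strand.
Kif18b: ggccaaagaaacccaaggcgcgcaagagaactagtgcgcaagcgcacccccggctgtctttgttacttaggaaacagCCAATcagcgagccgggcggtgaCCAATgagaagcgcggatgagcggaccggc
Kif20b: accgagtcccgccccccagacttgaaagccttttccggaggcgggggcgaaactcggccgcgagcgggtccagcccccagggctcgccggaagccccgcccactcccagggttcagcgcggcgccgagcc
Kif18b holds 2 CCAAT boxes, 53 and 30 bases before its start, and no CHR element. Kif20b holds neither element in the 250 bases searched, so the promoters differ in the CCAAT box alone. Over all 32851 promoters in the table, 33.8% held a CCAAT box and 17.1% a CHR element in that window, both strands counted. Among the 5 mitotic promoters 2 held each.

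Other genes of the spindle and its checkpoint, a list of 27 symbols outside the family rule, was mostly lower among its calls. Of 15 tested probe sets, for 10 genes, 9 were called lower and 1 higher, with a median of -0.70 (-0.52 over all 24 without the filter). That is 66.7% called, against 30.7% of all tested probe sets, for a list chosen with earlier results of these data known. Bub1b, a spindle checkpoint kinase, had 38.5 and 50.7 in cortex and 167 and 151 in cerebellum, against 610 and 766 at 15.5 dpc and 1930 and 1587 at 13.5 dpc. Its neonatal signals all lay below the array medians, so that the difference of -2.95 ± 0.15 (adjusted p = 0.000565) is given as at least 4.7-fold lower. Bub1b thus passed the filter through embryonic arrays alone and could only differ in that direction. Cenpe, the kinetochore kinesin, fell by 1.23 ± 0.15 (adjusted p = 0.0023). The single higher call was 1 probe set of Nek2, at 0.78, whose other called probe set fell by 1.11.

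The cilium group was the largest, with 69 probe sets of 38 genes. Of 44 tested 11 were called lower, each of a different gene, and 1 higher, with a median of -0.29 (-0.18 over all 69 without the filter). The 12 calls are 27.3%, near the 30.7% of all tested probe sets, and after median centring 7 were lower and 3 higher. The lower calls took in Hedgehog signalling at the ciliary tip (Kif7), both complexes of the intraflagellar transport train (Ift43, Ift52), the dynein that carries it back (Dync2li1), chaperonin-like proteins that assemble the BBSome (Bbs10, Bbs12), basal body and distal appendage proteins (Cep41, Cep78, Cep83), a centriolar kinesin that restrains cilium growth (Kif24) and an axonemal dynein (Dnah12).

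Ift43, of the retrograde complex IFT-A, had 737 and 801 in cortex and 920 and 810 in cerebellum, against 2240 and 1983 at 15.5 dpc and 1757 and 2104 at 13.5 dpc. All neonatal arrays lay below all embryonic arrays, and both embryonic ages were alike. It fell by 1.25 ± 0.14 (adjusted p = 0.00187), with values of -1.33 to -1.07 and a call under all 18 alternatives. Ift52, of the anterograde complex IFT-B, had 709 and 925 in cortex and 1007 and 1018 in cerebellum, against 1649 and 1715 at 15.5 dpc and 2129 and 2115 at 13.5 dpc. It too was lower in every neonatal array, by 1.01 ± 0.13 on the log2 scale (adjusted p = 0.00305), and was called throughout.

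Kif7 behaved differently from both. It had 119 and 46 in cortex and 204 and 65 in cerebellum, against 176 and 220 at 15.5 dpc and 842 and 701 at 13.5 dpc. Only the 13.5 dpc arrays were bright, and the 15.5 dpc arrays overlapped the neonatal ones. The difference of -1.55 ± 0.23 (adjusted p = 0.00434), at least 1.67-fold, became -0.71 and was no longer called without the 13.5 dpc arrays (adjusted p = 0.166). Prrx1, a mesenchyme gene, had 222, 205, 325 and 172 in neonatal arrays, against 319 and 303 at 15.5 dpc and 2759 and 2646 at 13.5 dpc, so that it was high on the same arrays as Kif7. Its part in the value of Kif7 was not tested. The other muscle and mesenchyme genes tested, Tnnt2 and Ttn, were not called.

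Smaller falls ran from -0.72 to -0.51. Bbs10 A fell by 0.72 ± 0.13 (adjusted p = 0.00788) and was lost without both cerebellum arrays (-0.69) or both 13.5 dpc arrays (-0.55), and Bbs10 B was not called (-0.48). Kif24 B fell by 0.69 ± 0.13 (adjusted p = 0.0109) and was lost without the maternal-7 cortex array (-0.62), the paternal-7 cerebellum array (-0.66) or both cortex arrays (-0.50). Kif24 A was not called (-0.45). The remaining lower calls were Cep41 A (-0.67), Dnah12 (-0.66, at least 1.36-fold), Dync2li1 (-0.59), Bbs12 (-0.56), Cep78 (-0.52) and Cep83 A (-0.51). None of the 6 was called without the 13.5 dpc arrays. After median centring Dync2li1, Bbs12, Cep78 and Cep83 A were not called, nor were Bbs12 and Cep78 after quantile normalization or Cep78 without the 15.5 dpc arrays.

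The BBSome subunit Bbs4 gave the single higher call, Bbs4 D at 0.54 ± 0.16 (adjusted p = 0.0398). It had 466 and 541 in cortex and 447 and 610 in cerebellum, against 297 and 508 at 15.5 dpc and 285 and 281 at 13.5 dpc. The groups overlapped through the maternal-7 array at 15.5 dpc, and the call was lost under 10 of 18 alternatives, with values of 0.35 to 0.74. The other 3 probe sets of Bbs4 had 0.16 to 0.32 and none was called. In all 32 cilium probe sets were not called, with differences of -0.69 to 0.64. They included the axonemal dyneins Dnah1 (-0.36), Dnah9 A (-0.10), Dnah7a (0.00) and Dnali1 A (0.12), and the dynein-2 heavy chain Dync2h1 (0.08).

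Cilium promoters are shown because CCAAT boxes were frequent there. Of 37 promoters for 35 of the 38 genes, 22 held one (59.5%, against 33.8% of all promoters). The core GTTGCC of the X-box, the element bound by the RFX factors of ciliary genes, was found in 9 (24.3%, against 10.4% of all), again on either strand. Capitals mark CCAAT boxes and X-box cores in the 130 bases before the start. The windows are chr2:163017223-163017352 (plus strand) for Ift52, chr10:111298549-111298678 (plus) for Bbs10, chr3:37312424-37312553 (plus) for Bbs12 and chr6:30693750-30693879 (minus) for Cep41, all in GRCm38.p6.
Ift52: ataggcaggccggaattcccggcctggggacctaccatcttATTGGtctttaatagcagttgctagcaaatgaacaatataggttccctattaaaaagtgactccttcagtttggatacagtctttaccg
Bbs10: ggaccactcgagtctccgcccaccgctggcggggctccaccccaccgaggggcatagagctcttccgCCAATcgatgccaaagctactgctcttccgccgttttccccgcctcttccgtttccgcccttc
Bbs12: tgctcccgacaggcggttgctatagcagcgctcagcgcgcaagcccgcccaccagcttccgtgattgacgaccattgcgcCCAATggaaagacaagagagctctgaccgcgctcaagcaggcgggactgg
Cep41: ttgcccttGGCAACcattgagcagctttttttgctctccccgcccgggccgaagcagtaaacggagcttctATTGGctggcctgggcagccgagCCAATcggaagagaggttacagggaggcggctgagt
Cep41 holds 2 CCAAT boxes, 59 and 36 bases before its start, and the other 3 hold 1 each, at 89 bases (Ift52), 63 (Bbs10) and 50 (Bbs12). Cep41 also holds X-box cores at 131 and 122 bases, the first of which runs over the edge of the printed window. Among the 24 promoters of member genes called lower the CCAAT share was 33.3%, and 4 of the 16 promoters of genes called higher held the box. These letter matches are descriptions, and nothing about factor binding follows from them.

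Of other cilium genes, a list of 35 symbols, 23 probe sets were tested, 3 called higher and 4 lower. That share (30.4%) and the median of -0.17 are those of all tested probe sets. The Hedgehog effector Gli3 fell at both tested probe sets, by 1.28 and 0.85. Ttc21b, of the IFT-A complex, fell by 0.45 at its brighter probe set, and the dimmer had -0.54 and was not called. The transition zone gene Mks1 fell by 0.50. The genes of motile cilia Ccdc39 (0.87, at least 1.03-fold) and Hydin (0.62) were called higher. Ccdc39 had passed the filter through neonatal arrays alone and could only differ in that direction. The RFX factor Rfx4 was called higher at its brighter probe set (0.81), and the dimmer had 0.40 and was not called.

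**Figure D2:**
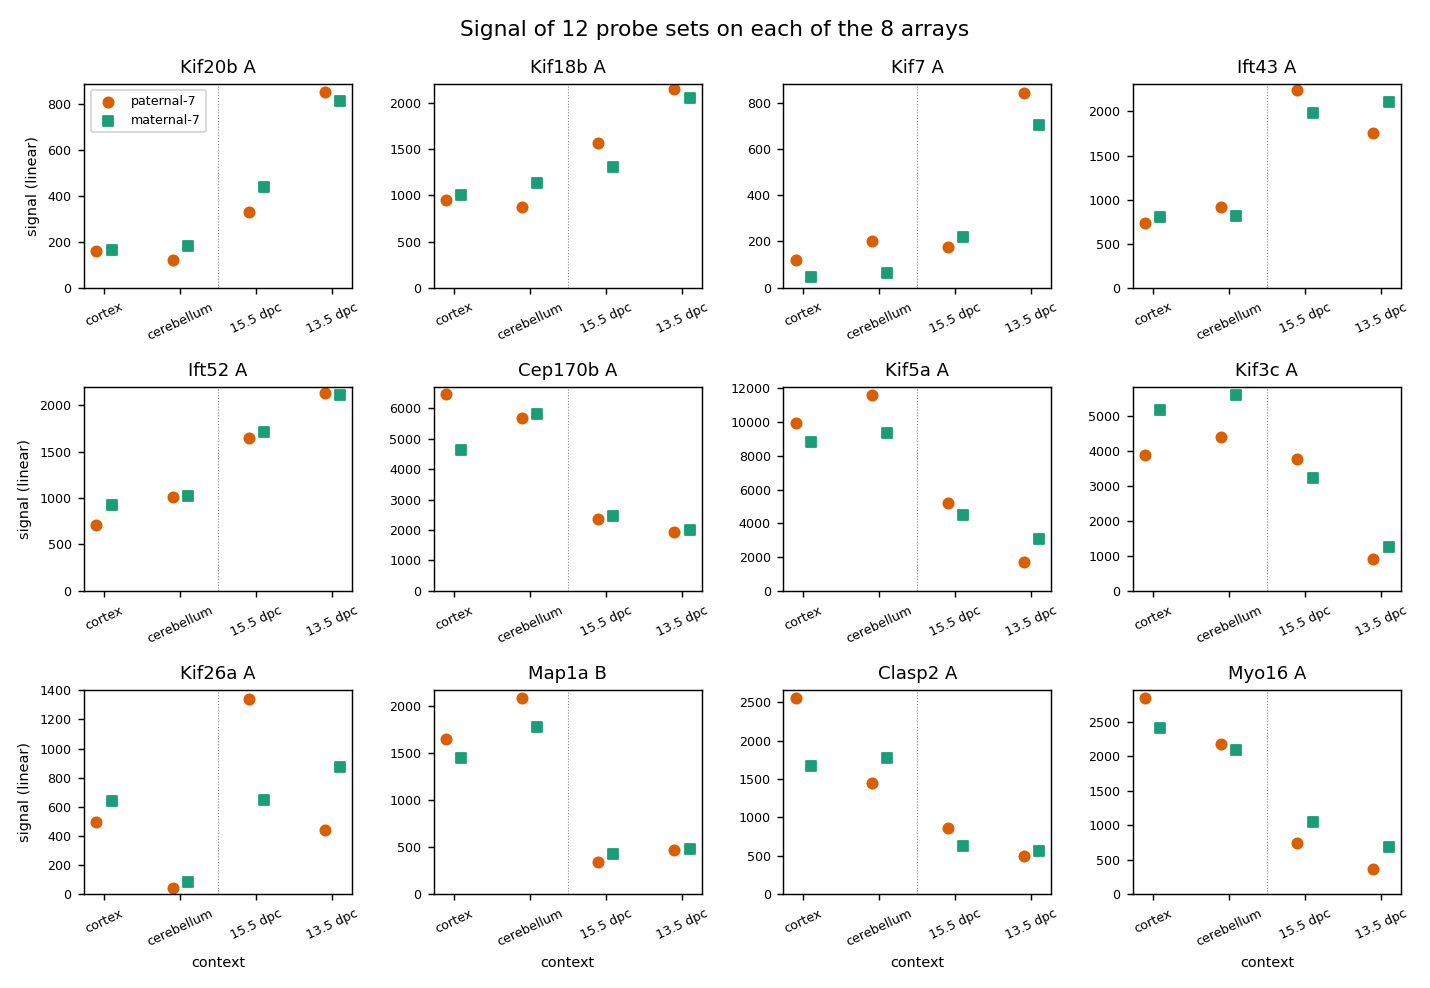
Linear signal (vertical axis, from 0, a scale for each panel) of 12 probe sets on each array by context (horizontal axis), with circles for paternal-7 and squares for maternal-7; a dotted line parts neonatal from embryonic contexts. Kif20b A and Kif7 stand at 701 or more at 13.5 dpc alone, Ift43 steps between stages, and Kif5a, Map1a B and Myo16 are higher on all 4 neonatal arrays.

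Among centrosome proteins, 25 of 40 probe sets were tested, 8 were called lower (6 genes) and 1 higher, with a median of -0.22. The share called was somewhat above the 30.7% of all tested probe sets, and the median was near their -0.16. After median centring 5 were called lower and 1 higher, with a median of -0.05, against 0.02 over all tested probe sets. The single higher call was Cep170b, a relative of the microtubule-binding centriolar protein Cep170. Cep170b had 6479 and 4634 in cortex and 5668 and 5806 in cerebellum, against 2360 and 2464 at 15.5 dpc and 1923 and 2005 at 13.5 dpc. Every neonatal array was above every embryonic one, by 1.34 ± 0.15 on the log2 scale (adjusted p = 0.00185), and the call was kept under all 18 alternatives. Cep170 itself was not called at either tested probe set (-0.06 and 0.73).

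Lower calls included several proteins of the centriole and its surroundings. Cep192, the scaffold that gathers pericentriolar material, fell by 0.85 ± 0.13 at probe set A (adjusted p = 0.00468), though the groups overlapped and the value was -0.48 and not called without the 13.5 dpc arrays. Cep76, which prevents centriole reduplication, fell at both probe sets, by 0.97 ± 0.23 (B) and 0.61 ± 0.15 (A). Cep128, of the subdistal appendages, fell by 0.77 ± 0.17 at C (at least 1.28-fold) and by 0.54 at A. B was not called (-0.89). Cep44 A (-0.81), which takes part in centriole maturation, and Cep63 A (-0.46), which acts in centriole duplication, were the remaining lower calls besides Cep97. Cep44 B had 0.33 and was not called. Cep63 A lost its call after either scaling and without the arrays of either embryonic age, and Cep76 A and Cep128 A lost theirs after median centring and without the 13.5 dpc arrays.

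Probe sets of Cep97, a suppressor of cilium assembly, disagreed. Cep97 B had 336 and 523 in cortex and 381 and 476 in cerebellum, against 1187 and 748 at 15.5 dpc and 967 and 832 at 13.5 dpc. It fell by 1.02 ± 0.21 (adjusted p = 0.0138) with no overlap, while Cep97 A (-0.07) and Cep97 C (0.00) were not called. The call of Cep97 B was lost under 5 of 18 alternatives, among them without the paternal-7 array of cortex (-0.84), of cerebellum (-0.93) or of 13.5 dpc (-0.95). Cep76 B and Cep44 A were each lost under 7 of 18, with values of -1.23 to -0.70 and -1.0 to -0.63, and Cep128 C under 7 of 17, with -0.98 to -0.59.

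Among transport motors, 8 of 20 tested probe sets were called higher (7 genes) and 4 lower (60.0%, against 30.7% of all tested probe sets). The median of the 20 was -0.05, and its sign depended on scaling, with -0.15 after quantile normalization and 0.12 after median centring. The higher calls included kinesin-1 heavy chains (Kif5a, Kif5c), kinesin-2 motors (Kif3a, Kif3c), kinesin-4 motors that restrain microtubule growth (Kif21a, Kif21b) and a kinesin-3 motor of endosomes (Kif13a). Kif5a, the neuronal kinesin-1, had 9930 and 8810 in cortex and 11589 and 9368 in cerebellum, against 5199 and 4506 at 15.5 dpc and 1718 and 3086 at 13.5 dpc. Neonatal arrays were all above embryonic ones, and 15.5 dpc arrays stood between neonatal and 13.5 dpc arrays. The difference was 1.55 ± 0.21 (adjusted p = 0.00351), 1.02 without the 13.5 dpc arrays, and it was called under all 18 alternatives.

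Kif3c, a neuronal kinesin-2, had 3870 and 5159 in cortex and 4380 and 5593 in cerebellum, against 3770 and 3228 at 15.5 dpc and 921 and 1266 at 13.5 dpc. Its paternal-7 arrays at 15.5 dpc and in cortex differed by little, and the gap lay between 13.5 dpc and all others. It was higher by 1.24 ± 0.16 (adjusted p = 0.0028), a value that became 0.42 and was not called without the 13.5 dpc arrays. Kif3a, the kinesin-2 subunit shared by neuronal transport and cilia, was called at both probe sets, at 1.0 ± 0.16 (A) and 1.03 ± 0.13 (B). Without the 13.5 dpc arrays neither was called, at 0.65 for A (adjusted p = 0.0632) and 0.68 for B (0.0568).

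Kif5c A had 15200 and 15773 in cortex and 16251 and 16239 in cerebellum, against 11944 and 12773 at 15.5 dpc and 4831 and 7540 at 13.5 dpc. The 4 neonatal arrays were the highest and the 13.5 dpc arrays the lowest. Its difference of 0.87 ± 0.16 (adjusted p = 0.00831) was not called without both cerebellum arrays (0.84) or both 13.5 dpc arrays (0.36). Kif21b had 0.74 ± 0.15 (adjusted p = 0.0128) and Kif13a A 0.49 ± 0.14 (adjusted p = 0.0361), with overlapping groups. Kif21b was 0.40 and not called without the 13.5 dpc arrays. Kif13a A was 0.17 without the 15.5 dpc arrays (adjusted p = 0.443) and 0.82 without the 13.5 dpc arrays, and its call was lost after quantile normalization (0.44). The other 3 probe sets of Kif13a ran from -0.33 to 0.21 and were not called. The probe sets of Kif21a differed in sign, with 0.79 ± 0.20 at A (adjusted p = 0.0262, lost under 9 of 18 alternatives) and -0.44 at B, which was not called.

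Kif26a, an atypical kinesin without motor activity, had the largest fall among transport members and also the largest difference between neonatal regions. It had 493 and 638 in cortex and 44 and 80 in cerebellum, against 1339 and 645 at 15.5 dpc and 441 and 872 at 13.5 dpc. Cortex arrays overlapped the embryonic ones, and cerebellum arrays were far below all others. The stage difference of -1.60 ± 0.30 (adjusted p = 0.00928) was -0.41 without the cerebellum arrays (adjusted p = 0.489), and it was also not called without the paternal-7 cerebellum array (-1.51).

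The other lower transport calls were near the threshold. Kif12 fell by 0.65 ± 0.15 (adjusted p = 0.0212), Kif1c, a kinesin-3, by 0.56 ± 0.15 (0.0341) and Dync1li2 A, a light intermediate chain of dynein-1, by 0.52 ± 0.16 (0.0476). They were lost under 9, 13 and 15 of 18 alternatives, and none of the 3 was called after median centring. Dync1li2 B was not called (0.03).

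MAP1 and plus-end proteins gave 5 higher calls of 3 genes among 8 tested probe sets and no lower call, with a median of 0.61. The share called was 62.5%, against 30.7% of all tested probe sets. Without the filter, over all 12 probe sets, the median was -0.09 and 5 were called higher and 1 lower. Map1a, which binds microtubules in axons and dendrites of maturing neurons, had at probe set B 1652 and 1446 in cortex and 2085 and 1779 in cerebellum, against 337 and 422 at 15.5 dpc and 471 and 479 at 13.5 dpc. The groups were well apart, and both embryonic ages were alike. The difference of 1.89 ± 0.14 (adjusted p = 0.00073) was the largest of all members and was called under all 18 alternatives, with values of 1.73 to 2.06. Map1a A also had all neonatal arrays above embryonic ones, by 0.84 ± 0.12 (adjusted p = 0.00417).

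Clasp2, which anchors growing plus ends at the cell cortex and in growth cones, had at probe set A 2558 and 1666 in cortex and 1444 and 1775 in cerebellum, against 859 and 631 at 15.5 dpc and 489 and 566 at 13.5 dpc. It was higher on every neonatal array, by 1.46 ± 0.19 (adjusted p = 0.00291), and was called throughout. Clip3, a linker of Golgi membranes, was called at both probe sets, at 0.57 ± 0.12 (A) and 0.65 ± 0.13 (B). The call of Clip3 A was lost after quantile normalization (0.38) and without the 13.5 dpc arrays (0.35). That of Clip3 B was lost after quantile normalization (0.42) and without the paternal-7 cortex array (0.60), both cortex arrays (0.53) or both 13.5 dpc arrays (0.48). Clasp1, the relative of Clasp2, was not called at either probe set (-0.20 and -0.15).

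Other neuronal microtubule genes, a list of 38 symbols outside the family rule, were mostly higher. Of 35 tested probe sets, for 20 genes, 20 were called higher and 1 lower, with a median of 0.62 (0.31 over all 45 without the filter). That is 60.0% called, against 30.7% of all tested probe sets, for a list chosen with earlier results of these data known. Mapt, the axonal protein tau, had 28786 and 25055 in cortex and 28195 and 29634 in cerebellum, against 19802 and 13622 at 15.5 dpc and 3395 and 6123 at 13.5 dpc, a difference of 1.68 ± 0.23 (adjusted p = 0.00342). Nav1, a guidance protein at plus ends, reached 1.91 and Dclk1, a doublecortin relative, 1.61, though 1 probe set of Nav1 had 0.42 and was not called. The lower call was the dimmer tested probe set of Trak2, an adaptor of mitochondrial transport, at -0.57. Its brighter probe set had 0.04 and was not called.

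Calls among tubulin tyrosine ligase-like enzymes outside the cilium group went both ways. Of 14 tested probe sets, 3 were called higher (2 genes) and 1 lower, a share (28.6%) near the 30.7% of all tested probe sets. Ttll7, a neuronal polyglutamylase, had at probe set A 1286 and 1127 in cortex and 977 and 797 in cerebellum, against 543 and 788 at 15.5 dpc and 442 and 373 at 13.5 dpc. The lowest neonatal array (797) barely cleared the highest embryonic one (788). The difference was 0.92 ± 0.17 (adjusted p = 0.00933), lost without the paternal-7 cortex array (0.88), both cortex arrays (0.71) or both 13.5 dpc arrays (0.61).

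Ttll11, another polyglutamylase, was called at A (0.59 ± 0.13) and B (0.74 ± 0.19) and not at C (-0.02), and the call of B was lost under 10 of 18 alternatives. Ttll11 A was 0.08 without the 13.5 dpc arrays (adjusted p = 0.774) and 1.1 without the 15.5 dpc arrays. Ttll4 A, of the enzyme that starts glutamate chains, fell by 0.77 ± 0.13 (adjusted p = 0.00637), with all neonatal arrays (671 to 897) below all embryonic ones (1083 to 1592). That call was lost without both cerebellum arrays (-0.62) or both 13.5 dpc arrays (-0.60). Among 3 tested tubulins, Tubb6 was higher by 0.89 ± 0.13 (adjusted p = 0.00371), at least 1.06-fold since embryonic arrays lay below their medians. Tubb6 had passed the filter through neonatal arrays alone and could only differ in that direction. Tubb1, the beta-tubulin of platelets, fell by 0.54 ± 0.16 (adjusted p = 0.0399), a call lost under 15 of 18 alternatives, both scalings included. Tuba8 was not called (-0.44).

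The actin motors were even, with 3 of 11 tested myosins called higher and 3 lower, and a median of -0.36. Calls made up 54.5% of tested myosins, against 30.7% of all tested probe sets. Myo16, a neuronal myosin, had 2840 and 2408 in cortex and 2181 and 2093 in cerebellum, against 737 and 1050 at 15.5 dpc and 360 and 678 at 13.5 dpc. Neonatal arrays were at 2093 or above and embryonic ones at 1050 or below, a difference of 1.75 ± 0.20 (adjusted p = 0.00198) that was called under all 18 alternatives. Myo5a, which carries organelles into dendritic spines, was higher by 1.19 ± 0.14 (adjusted p = 0.00222), with 4864 to 6637 in neonatal and 1769 to 3132 in embryonic arrays.

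Both myosins with a RhoGAP domain were called, in opposite directions. Myo9a was higher by 0.76 ± 0.16 (adjusted p = 0.0135, lost under 6 of 18 alternatives) and Myo9b A fell by 0.71 ± 0.15 (adjusted p = 0.0157, lost under 4 of 17). Myo1f A, of a myosin of immune cells, fell by 0.53 and Myo1a, of the gut brush border, by 0.49. Both were dim, at 192 to 441, and lost their calls under 12 and 14 of 18 alternatives, both scalings included. The 4 remaining genes (Map10, Map1lc3a, Stmnd1 and the opposite-strand transcript Cep83os) gave no call, and the brightest, the autophagy gene Map1lc3a, had 0.06 ± 0.12.

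**Figure D3:**
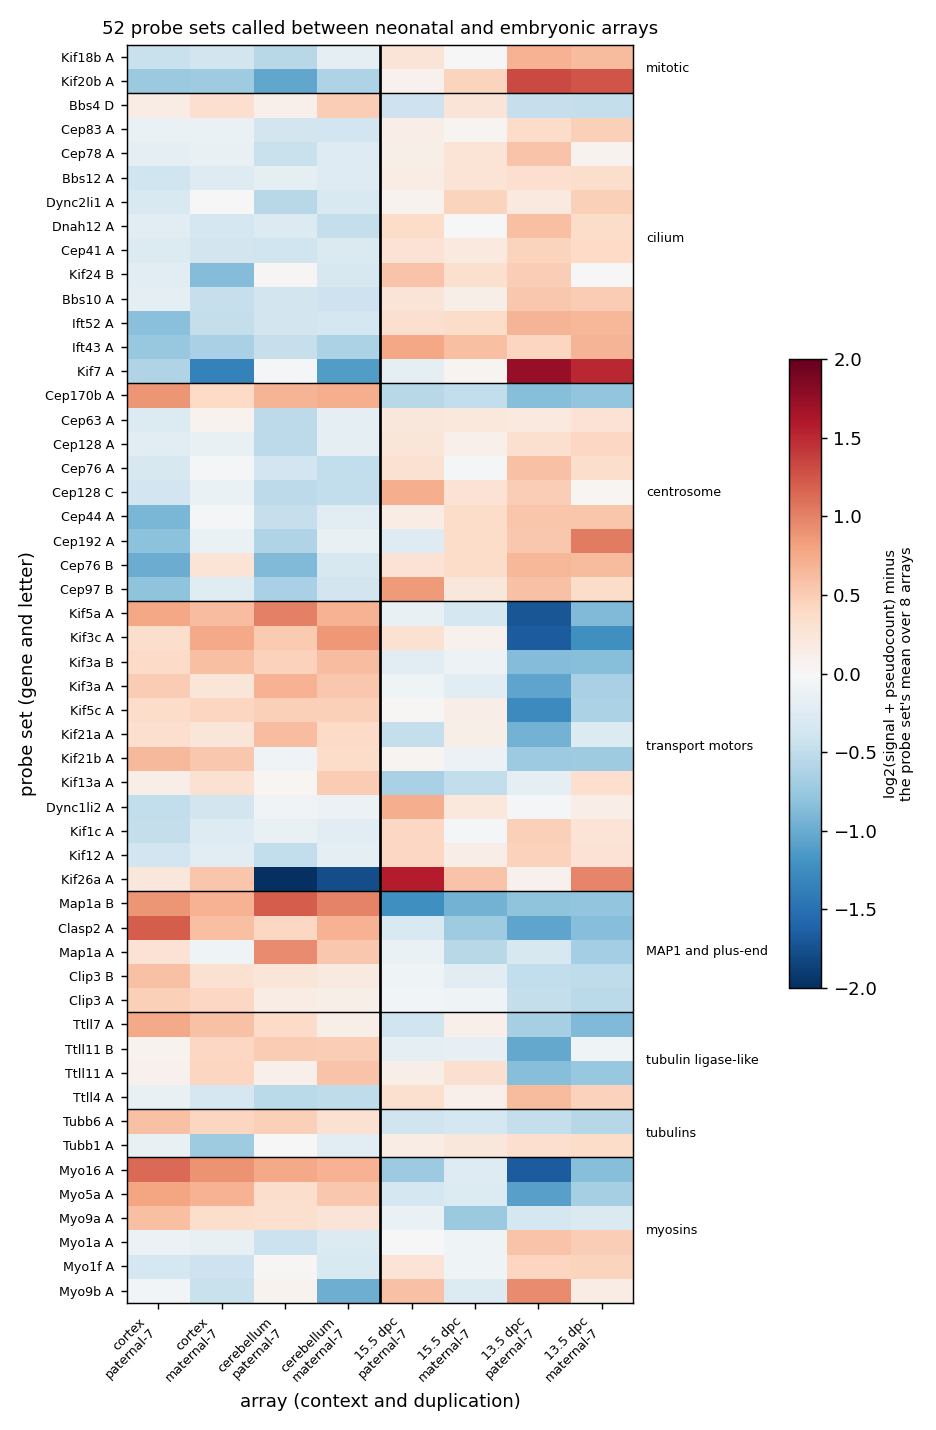
Log2(signal + 58.5) minus each probe set's mean over the 8 arrays (colour, red above and blue below the mean) for the 52 probe sets called between neonatal and embryonic arrays (rows, by role), with neonatal arrays left of the black line and embryonic arrays right of it. Most transport and all MAP1 and plus-end rows are redder at left than at right, mitotic and cilium rows other than Bbs4 D the reverse, and Kif26a is darkest in the cerebellum columns; the scale stops at 2 in each direction.

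The youngest arrays weighed heavily. Without both 13.5 dpc arrays 14 of the 52 calls remained and no other was made, 9 higher (Map1a A and B, Clasp2 A, Myo16, Cep170b, Kif5a, Myo5a, Kif13a A, Tubb6) and 5 lower (Kif26a, Ift43, Kif20b A, Ift52, Kif24 B). Without both 15.5 dpc arrays 46 of the 52 were kept. Of the members named by size within each role, Cep170b, Ift43, Ift52, Kif20b A, Myo16, Myo5a, Map1a B, Clasp2 A, Kif5a and Tubb6 were called under all 18 alternatives. Kif20b A had passed the filter through embryonic arrays alone and Tubb6 through neonatal arrays alone, so each could only differ toward that side.

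Within the embryonic period, 7 members were called between 15.5 and 13.5 dpc (5.3%, where 6.59% of all tested probe sets were), 4 higher at 15.5 dpc (background 3.52%) and 3 lower (3.07%). That share is near the background. Kif3c (1.64 ± 0.23, adjusted p = 0.0176), Dync1li2 B (1.13, 0.0428), Kif5c A (1.03, 0.0453) and Ttll11 A (1.03, 0.0321) were higher at 15.5 dpc. Kif7 (-1.69 ± 0.33, adjusted p = 0.0343, at least 2.87-fold), Kif20b A (-1.02, 0.0391) and Kif13a D (-0.91, 0.0435, at least 1.37-fold) were lower. Kif7 had passed the filter through the 13.5 dpc arrays alone, so it could only differ in that direction. Dync1li2 B had 3892 and 3890 at 15.5 dpc, against 1823 and 1675 at 13.5 dpc. Kif13a D had 145 and 195 at 15.5 dpc, against 324 and 416 at 13.5 dpc. The groups did not overlap in either, and neither probe set was called between neonatal and embryonic arrays, a comparison that shares these 4 arrays. When 1 array was left out 0 to 3 members were called, at most 2 of them among the 7. The count was 0 without either cortex array, either cerebellum array or either paternal-7 embryonic array.

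Between cortex and cerebellum no member was called in limma, where 0.325% of all tested probe sets were, and 5 members (3.79%) had an unadjusted p under 0.05 in limma, against 7.65% of all. Kif26a had the largest difference, 2.38 ± 0.42 on the signals given above (adjusted p = 0.126), at least 2.41-fold, and it was called (adjusted p = 0.0375) without the 15.5 dpc arrays. Map1a A had 3178 and 2436 in cortex, against 5080 and 3812 in cerebellum (-0.65, adjusted p = 0.364). Kif6 A, of a kinesin of motile cilia, had 246 and 247 in cortex, against 343 and 465 in cerebellum (-0.59, adjusted p = 0.495). Tubgcp4, of the gamma-tubulin ring, had 224 and 317 in cortex, against 128 and 150 in cerebellum (0.73, adjusted p = 0.619). Myo5b A, of a motor of recycling endosomes, had 809 and 688 in cortex, against 546 and 512 in cerebellum (0.46, adjusted p = 0.62). Both cortex arrays lay on 1 side of both cerebellum arrays for all 5.

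Between paternal-7 and maternal-7 no member was called in limma. Of all tested probe sets 1 was called (0.00756%), and it was no member. An unadjusted p under 0.05 was reached by 16 of 132 members (12.1%), against 1147 of 13221 (8.68%), and the smallest adjusted p was 0.532. All 4 contexts had 1 sign for 20.5% of members, 14 higher and 13 lower in paternal-7, against 18.7% of all tested probe sets. No member moved by more than 0.84.

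The 3 largest differences in each direction, among members whose sign was shared by the 4 contexts, follow without a call. Myo9b A had 216 and 151 in cortex, 242 and 87 in cerebellum, 370 and 179 at 15.5 dpc and 493 and 260 at 13.5 dpc (paternal-7 before maternal-7), a difference of 0.77 ± 0.15 (adjusted p = 0.532), at least 1.26-fold. All maternal-7 signals of Myo9b A lay below the array medians. It thus passed the filter through paternal-7 arrays alone and could only differ in that direction. Kif21a B had 0.62 ± 0.17 (adjusted p = 0.535) and Ift57, of IFT-B, 0.47 ± 0.13 (0.535). In the other direction Bbs10 B had -0.81 ± 0.32 (adjusted p = 0.562), Map10 -0.77 ± 0.27 (0.546) and Cep44 B -0.63 ± 0.33 (0.601). At 15.5 dpc Bbs10 B had 66 in paternal-7 and 480 in maternal-7, Map10 had 52 and 323, and Cep44 B had 38 and 327. Without the 15.5 dpc arrays the 3 differences were -0.37, -0.43 and -0.18. All 6 kept their sign under every alternative.

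Members on the translocated chromosomes are of interest because only their proximal segments were duplicated, though the labels give no breakpoints and no member can be placed inside or outside a segment. Chromosome 7 held 9 probe sets of 5 genes, 4 of them tested, with differences of 0.05 to 0.46 and no unadjusted p under 0.05. Kif7 had 119 and 46 in cortex, 204 and 65 in cerebellum, 176 and 220 at 15.5 dpc and 842 and 701 at 13.5 dpc (0.46 ± 0.23, adjusted p = 0.59), higher in paternal-7 in 3 of 4 contexts. Clip3 A was higher in paternal-7 in 4 of 4 contexts but by 0.05 ± 0.12. Chromosome 15 held 8 probe sets of 6 genes, 7 of them tested, with differences of -0.24 to 0.62. Kif21a B was the one with an unadjusted p under 0.05, and Kif21a A, of the same gene, had -0.24 ± 0.20. Both ends of the range thus belonged to probe sets of 1 gene that disagree.

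**Figure D4:**
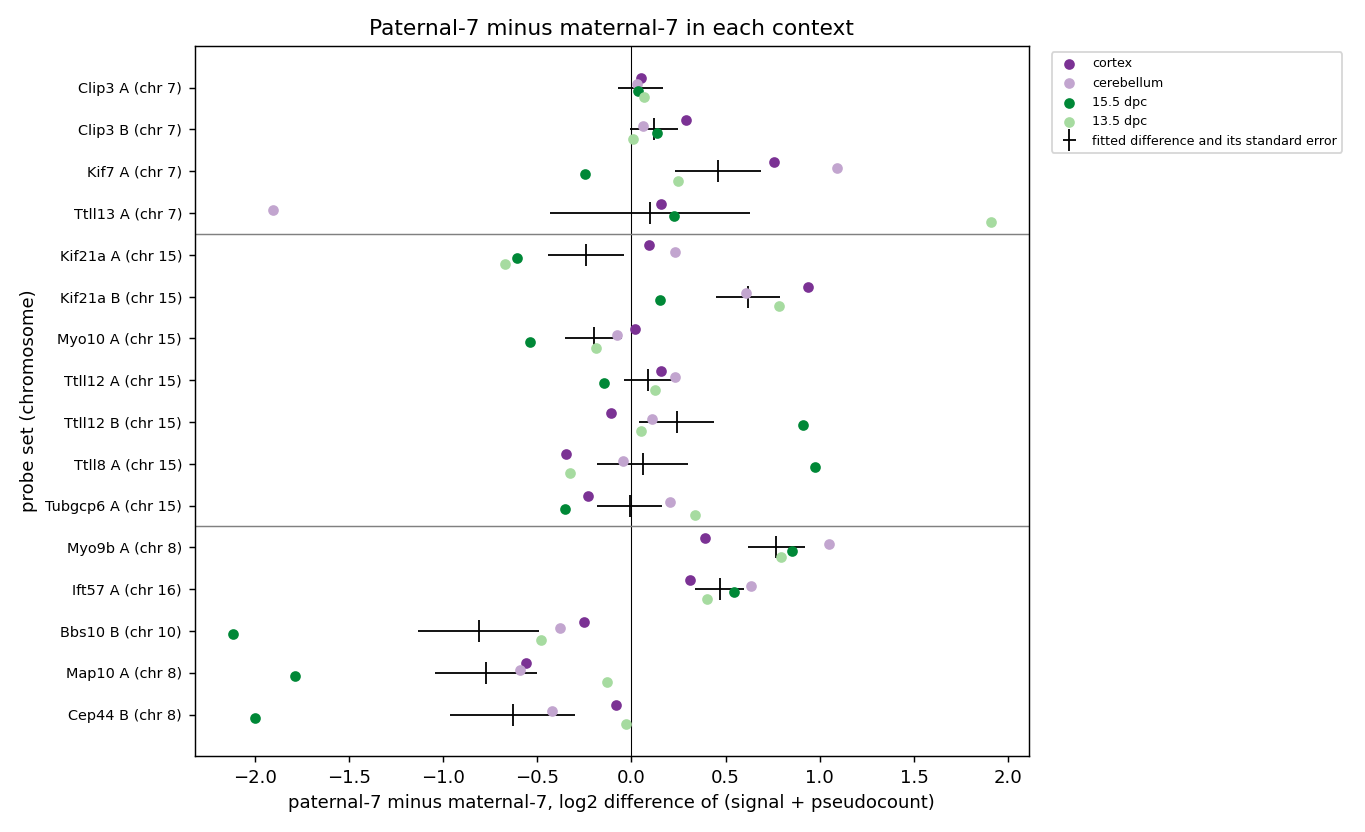
Log2 difference of paternal-7 minus maternal-7 (horizontal axis) in each of the 4 contexts (coloured points) for the 11 tested members of chromosomes 7 and 15 and for 5 members of other chromosomes with the largest differences of 1 sign; bars mark the fitted difference with its standard error. Clip3 A stays near 0 in all contexts, Ttll13 A has contexts on both sides of 0, and the 15.5 dpc points of Bbs10 B, Map10 and Cep44 B lie far left.

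The last comparison asked whether the effect of parental origin differed between stages. The difference of the paternal-7 effect in neonatal minus embryonic contexts was called for 0 of 13221 probe sets (0.0%), with 12 of 132 members (9.09%) and 9.14% of all tested probe sets at an unadjusted p under 0.05 in limma, and a smallest adjusted p of 0.456 among members.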

How the data were processed

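Each of the 8 samples gave 1 Affymetrix 430B array. The deposited intensity values are linear signals made with MAS5, per the submitters' processing notes. No MAS5 version is given in the sources used. The mean between the 2nd and 98th percentiles was 499.9 on every array, and no detection calls accompany the values. MAS5 summarises each array alone, so low signals are noisy. Depth has no meaning for arrays, and their number limits the precision.

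After 64 control probe sets were set aside, 22511 remained: 14661 with 1 gene symbol, 245 with several and 7605 with none, by GEO's platform annotation. All 120 member symbols matched the RefSeq gene table of GRCm38.p6, used for names and chromosomes. The files name no build, and coordinates are given only for RefSeq promoter sequences, found for 98 of the 120 genes (110 promoters) and searched over 250 bases.

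Log2(signal + 58.5) was used, with a pseudocount set at the 20th percentile (median of 8 arrays), so differences of dim probe sets are understated. Limma 3.58.1 in R 4.3.3 fitted a term per context and 1 for the duplication (3 residual degrees of freedom) to all 13221 tested probe sets, with Benjamini-Hochberg adjustment over all of them. A second model (2 residual degrees of freedom) tested the difference of the duplication effect between stages. Where 1 side lay below the median on every array, "at least N-fold" sets that side at the array median or its own signal, whichever was higher. The script was tested on simulated data.

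Alternatives were median centring, quantile normalization, a pseudocount of 16 or a floor of 1 in its place, no filter, a filter of 4 arrays, and leaving out each array or both arrays of a context. The members, roles and lists were chosen with earlier results of these data known. For each role up to 5 called genes in each direction were named, by size and by 1 probe set a gene, and for the duplications the top 3 by size in either direction whose sign was shared by 4 contexts. Further called members, and the cortex and cerebellum values with an unadjusted p under 0.05, are named beyond that rule, after their values were seen. The promoters printed were chosen after the values were seen.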

Additional observations from a re-analysis of the deposited data

Results flagged for a closer look

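For 8 named members the paternal-7 minus maternal-7 difference had 1 sign in both neonatal contexts and the opposite sign in both embryonic contexts. The test of that difference passed for none of them in limma. The neonatal minus embryonic difference of the effect was -0.84 ± 0.28 for Cep97 B (adjusted p = 0.507), -0.59 for Cep128 C (0.548), -0.37 for Kif18b (0.666) and -0.46 for Kif12 (0.606), where paternal-7 was lower in neonatal and higher in embryonic arrays. It was 0.79 ± 0.26 for Myo16 (adjusted p = 0.507), 0.35 for Map1a B (0.666), 0.80 ± 0.24 for Kif21a A (0.501) and 0.43 for Tubb1 (0.622), where paternal-7 was higher in neonatal and lower in embryonic arrays. Each sign rests on 1 array of each duplication in a context, and the cause was not tested.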

How the results depend on the processing

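No member named by size, within a role or for the duplications, changed sign under any alternative. Members named beyond that rule, some of them near 0, were not all checked for this. Between neonatal and embryonic arrays, the 52 calls (22 higher and 30 lower) ranged from 14 to 56 when arrays or contexts were left out, with 9 to 23 higher and 5 to 33 lower. The lowest counts, 14, 9 and 5, came without both 13.5 dpc arrays. Lower calls numbered 17 after median centring, which shifts all differences upward by its construction. With no filter 19 of the 200 probe sets were called higher and 25 lower, where 14.5% of all probe sets were called. Between 15.5 and 13.5 dpc, the 7 calls became 2 with a floor of 1, 3 with a pseudocount of 16 and 1 with no filter, and 0 to 3 when arrays were left out. The cause was not tested. Between cortex and cerebellum the count was 0, and 0 to 1 when arrays were left out. No paired analysis was possible because no group holds a second array, so there is no replicate number to pair by. The model itself sets paternal-7 against maternal-7 within each context. Comparisons rest on 2 or 4 arrays a side, with 3 residual degrees of freedom, or 2 where the duplication effect was compared between stages, and signals near the array median cannot be told from background.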
